A study of Homo sapiens with 4 samples.

Results

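RNA from HEK293T cells carrying an expression vector for SF3B1 with the substitution K666T, in which a lysine is replaced by threonine, was compared with RNA from HEK293T cells carrying a vector for the wild-type protein (WT). HEK293T is an established human embryonic kidney line. The comparison was taken from the vector named in the labels and uses 2 of the 4 libraries of the study, 1 for each side. The other 2 libraries carry SF3B1 with R625H or K700E and are used here only where K666T is set against them. Per the labels, plasmid was delivered with Lipofectamine 2000, with 1000 ng for K666T and for R625H and 2000 ng for K700E, and no amount is stated for WT. All libraries are stranded poly(A) libraries read as 100-bp pairs, and the vector was introduced into cells that have their own SF3B1. How much of the introduced protein was made was not measured here. There is no replicate, so no difference has a replicate check, every test compares the reads of 2 libraries and not the conditions, and all intervals cover counting error only.

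SF3B1 is the largest subunit of SF3b, a part of the U2 snRNP, the particle that recognises the branch point adenosine of an intron before its 3′ end is chosen. The first AG dinucleotide that lies at a suitable distance after the branch point is normally used as the acceptor, the site at which the next exon begins. Substitutions in the HEAT repeats of SF3B1, where this lysine lies, recur in myelodysplastic syndromes, leukaemias and uveal melanoma, and mutant cells are known for using cryptic acceptors a short way upstream of the normal one. Use of such an acceptor lengthens the exon by the bases between both AGs, and in coding sequence it shifts the reading frame unless that number is a multiple of 3. The study's title concerns how the position and the charge of the substituted residue bear on the protein's function.

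Reads assigned to genes numbered 90939945 in WT and 86394759 in K666T, and uniquely mapped reads across splice junctions numbered 72034388 and 68666760. SF3B1 had 506 CPM (gene reads scaled to the library total) in WT and 521 CPM in K666T. It was not tested how far vector-derived reads add to that number, and the level does not check the labels. Of 9 HEK293T marker genes 7 were listed, and all 7 had reads in both libraries, with a summed level of 1380 CPM on each side, while the summed level was 1.39 and 1.44 CPM for 8 blood cell markers and 23.4 and 23.1 CPM for 7 melanocyte markers, of which MLANA and SOX10 had no read in either. The share of unmapped pairs was 8.84% in WT and 17.31% in K666T, and its part in the results below was not tested. It was 16.46% in R625H and 15.17% in K700E, so WT was the library that stood apart.

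Splicing was read from pairs of acceptors 10 to 30 nt apart that are joined to the same donor. The upstream share is the percentage of the pair's uniquely mapped junction reads that end at the upstream acceptor. A share is said to have risen or fallen where a two-sided Fisher's exact test gave an adjusted p (Benjamini-Hochberg) under 0.05 and the libraries differed by at least 10 percentage points, among pairs with at least 20 reads in each. In the main set of 3727 pairs from 2593 genes, in which both acceptors were read in both libraries and the downstream one is annotated, the upstream share rose in K666T at 83 pairs, which is 2.23% of those tested. It fell at 7 pairs, or 0.188%. The rises lay in 79 genes, and their median share was 4.06% in WT and 25% in K666T, with a median difference of 17.2 points. Over the whole set the median share in WT was 1.14% and the median difference 0.127 points. In WT, 62 of the 83 shares were under 10%, and in K666T 20 were over 50%. A further 161 pairs of the set had an adjusted p under 0.05 and a higher share in K666T by less than 10 points, against 18 with a lower share.

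Among all 22896 pairs tested, including those with an acceptor that was unread on one side or that matched no annotation, 319 rose (1.39%) and 216 fell (0.943%). With an annotated downstream acceptor but no demand on reads at both sites, 128 of 14107 pairs rose (0.907%) and 24 fell (0.17%). Rises outnumbered falls in all 3 sets.

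The sequence around both acceptors is shown for a selection of the pairs covered by a GENCODE 29 transcript that keeps the intron's end. They are the pairs on which the description below turns. Each runs 5′ to 3′ on the transcript strand from 34 bases before the upstream AG to 6 bases after the downstream AG, with both AGs in capitals. The first 8 rose in K666T and the last 3 fell.
CDK20: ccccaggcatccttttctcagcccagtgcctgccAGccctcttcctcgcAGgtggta
LYPLAL1: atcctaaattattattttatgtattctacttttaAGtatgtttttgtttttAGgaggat
GCC2: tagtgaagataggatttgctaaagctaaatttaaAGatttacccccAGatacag
MYRF: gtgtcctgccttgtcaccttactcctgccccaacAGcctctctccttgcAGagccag
CAMTA2: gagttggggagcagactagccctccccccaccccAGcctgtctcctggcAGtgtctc
DLG1: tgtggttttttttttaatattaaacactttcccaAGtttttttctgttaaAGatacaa
CBY1: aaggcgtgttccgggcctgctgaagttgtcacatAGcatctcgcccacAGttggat
ERCC3: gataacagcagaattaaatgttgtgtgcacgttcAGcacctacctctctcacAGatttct
DDX41: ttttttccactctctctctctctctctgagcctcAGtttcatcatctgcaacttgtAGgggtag
TCF7: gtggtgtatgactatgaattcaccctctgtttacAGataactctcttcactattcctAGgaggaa
TAF1D: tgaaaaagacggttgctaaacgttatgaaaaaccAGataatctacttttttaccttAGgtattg

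Between both AGs, pyrimidines (c or t) made up 12 of 13 bases in CDK20 and in MYRF, 8 of 10 in GCC2, 10 of 13 in CAMTA2 and 9 of 12 in CBY1 among the rises. Among the falls they made up 14 of 20 in DDX41, 16 of 21 in TCF7 and 15 of 20 in TAF1D, so in these pairs the stretch was rich in pyrimidines in either direction. Of pairs not shown, the rise in RPL13 had 8 of 16 and the fall in RACK1 had 13 of 19. In the 20 bases before the upstream AG, adenine counted 8 in GCC2 and in DLG1, 4 in LYPLAL1 and in MYRF, and 2 in CDK20, and among the falls 9 in TAF1D and 1 in DDX41. The sequences thus cover both adenine-rich and adenine-poor stretches in either direction. Such sequence was found for 22 of the 79 acceptor site pairs that rose (27.8%), 5 of the 7 that fell (71.4%) and 1100 of 3596 in the set (30.6%), too few for a comparison of composition between risen pairs and the set.

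The rises are given by the known role of each gene, an order made for description after the values were seen, as was the choice of genes beyond the 20 largest rises. Among genes of the genome's upkeep the largest rise was in GEN1, a nuclease that resolves Holliday junctions. Its acceptor ends at position 17941178 of hg19 on chromosome 2, 17 nt upstream, at an exon that opens outside coding sequence. Its upstream share was 3 of 39 reads in WT (7.69%, Wilson 95% interval 2.65 to 20.3) and 52 of 67 in K666T (77.6%, 66.3 to 85.9), with an adjusted p of 2.55e-11. From another donor joined to the same acceptors it was 1 of 22 reads (4.55%) and 20 of 24 (83.3%), so the minor site in WT was the major site in K666T from both donors. In the other mutant libraries the first donor's share was 65.75% (R625H) and 68.0% (K700E). MUTYH, a DNA glycosylase that removes adenine opposite oxidised guanine, rose from 22% of 50 reads to 51.2% of 41 (chromosome 1, 45799267, 30 nt), with an adjusted p of 0.0485, close to the threshold. XRCC3, a factor of homologous recombination, rose from 35.5% to 57.6%, and CHTF18, a subunit of an alternative clamp loader, from 3 of 432 reads (0.69%) to 51 of 250 (20.4%). Smaller rises were read in ERCC3, the XPB helicase of transcription and nucleotide excision repair (3.63% to 16.7%), in HLTF, a helicase-like ubiquitin ligase of damage tolerance (16.45% to 26.7%), and in the chromatin remodeller HELLS (3.0% to 13.9%).

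Several genes of cilia, centrosomes and microtubules rose. CDK20, a kinase tied to ciliary function, had an unannotated acceptor 15 nt upstream (chromosome 9, 90585561) at 2 of 31 reads in WT (6.45%, 1.79 to 20.7) and at 22 of 34 in K666T (64.7%, 47.9 to 78.5), with an adjusted p of 1.61e-05. In R625H it was 73.5% and in K700E 70.4%. CCDC66, a ciliary and microtubule-binding protein, rose from 19 of 106 reads (17.9%) to 78 of 143 (54.55%), and AGBL3, a carboxypeptidase that trims glutamates from tubulin, from 5.45% of 55 reads to 36.4% of 99. MAP7D1, which binds microtubules, was already at 41.5% in WT and reached 24 of 25 reads (96.0%), and with multi-mapped reads added its difference of 28.6 points was no longer a call. In the centriole genes CEP135 and CEP295 the shares were 0.69% and 8.0% in WT against 25.5% and 26.97% in K666T. The dynein light chain DYNLL1 was read at great depth, with 658 of 8659 reads (7.6%) in WT and 2194 of 8139 (26.96%) in K666T. BUB1B, a kinase of the spindle checkpoint, rose from 6.24% to 20.25%, and CBY1, a small protein of the ciliary base, from 3 of 770 reads (0.39%) to 100 of 674 (14.8%).

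In genes of membrane traffic and the Golgi, GCC2, a golgin of the trans-Golgi, went from 1 of 128 reads (0.78%, 0.14 to 4.29) to 63 of 161 (39.1%, 31.9 to 46.8) at an acceptor 12 nt upstream (chromosome 2, 109102954; adjusted p 3.86e-16). R625H stood at 55.35% and K700E at 38.5%. VPS8, of an endosomal tethering complex, rose from 2.63% to 19.8%, and WASHC4, of the complex that builds actin on endosomes, from 5.19% to 22.4%. ERGIC3, of the compartment between endoplasmic reticulum and Golgi, went from 21 of 2223 reads (0.94%) to 243 of 1955 (12.4%). These shares were low in WT in all 4 genes, and each interval in K666T lay wholly above that in WT.

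Signalling and survival genes held further rises. BCL2L1, the gene of the apoptosis regulators BCL-xL and BCL-xS, was read from 3 donors joined to 1 pair of acceptors (chromosome 20, 30310152, 18 nt). The first base of the exon lies outside coding sequence. Its shares were 19.7, 32.65 and 39.3% in WT and 62.2, 65.4 and 69.6% in K666T, rises that share their acceptors and are not separate observations. ORAI2, a calcium channel subunit, rose from 3 of 120 reads (2.5%) to 40 of 104 (38.5%), TTI1, which stabilises PI3K-related kinases such as mTOR and ATM, from 12 of 277 (4.33%) to 82 of 239 (34.3%), and TGFBR1, a receptor of TGF-β, from 9 of 103 (8.74%) to 31 of 92 (33.7%). MAP3K7, encoding TAK1, rose from 9.06% to 25%, DLG1, a scaffold of cell polarity, from 3.23% to 21.8%, and SMURF2, a ubiquitin ligase of TGF-β signalling, from 0.75% to 11.8%.

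Genes of chromatin, transcription and RNA handling rose as well. BRD9, a subunit of the non-canonical BAF remodelling complex, had 14 of 27 reads (51.9%, 34.0 to 69.3) at the upstream acceptor in WT and 88 of 99 (88.9%, 81.2 to 93.7) in K666T (chromosome 5, 869520, 10 nt; adjusted p 0.0012). MYRF, a transcription factor known for myelination, rose from 3 of 51 reads (5.88%) to 13 of 32 (40.6%), and CAMTA2, a transcription factor that responds to calmodulin, from 5.83% to 31.65%. DCAF16, a substrate receptor of CUL4 ubiquitin ligases, rose from 26 of 38 reads (68.4%) to 129 of 133 (97.0%) with 1 donor and from 64.35% to 79.1% with another. UPF3B, of nonsense-mediated decay, rose from 2 of 870 reads (0.23%) to 88 of 808 (10.9%), THOC1, of the mRNA export complex THO, from 7.17% to 19.5%, and PRPF38A, a spliceosome protein, from 4.06% to 15.02%. UBL7, a ubiquitin-like protein, rose from 18 of 101 reads (17.8%, 11.6 to 26.4) to 63 of 100 (63.0%, 53.2 to 71.8) at an acceptor 29 nt upstream (chromosome 15, 74740929; adjusted p 1.7e-09).

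Among metabolic genes, TMEM14C, a mitochondrial carrier of heme precursors, went from 185 of 2784 reads (6.65%, 5.78 to 7.63) to 843 of 2432 (34.7%, 32.8 to 36.6), with an adjusted p of 2.05e-146. LYPLAL1, a lysophospholipase-like enzyme, rose from 7 of 44 reads (15.9%) to 41 of 74 (55.4%) at an acceptor 17 nt upstream (chromosome 1, 219383856; adjusted p 0.000353). DPH5, of diphthamide synthesis, rose from 1 of 698 reads (0.14%) to 79 of 437 (18.1%), and UXS1, which makes UDP-xylose, from 27.9% to 50.5%. Also among the 20 largest rises was TMEM141, a small membrane protein, with 32.0% of 25 reads in WT and 81.8% of 22 in K666T (adjusted p 0.0136). The rise of RPL13, from 10.8% to 34.4%, rests on junctions where 53.4% of reads mapped to several places. With those reads added its difference was 9.52 points, under the 10-point limit.

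Most of the other rises started from a share close to 0 in WT. In TPP2, a large cytosolic peptidase, it went from 3 of 257 reads (1.17%) to 45 of 187 (24.1%), and in NFYA, a subunit of the CCAAT-binding factor, from 0.65% to 15.4%. KANSL3, of the NSL acetyltransferase complex, rose from 0.46% to 12.8%, RDX, the membrane linker radixin, from 0.53% to 12.4%, and VARS2, the mitochondrial valyl-tRNA synthetase, from 0.33% to 11.6%. DLST, an enzyme of the citric acid cycle, stood at 1.33% and 18.5%, and TOR1AIP2 at 4 of 265 reads (1.51%) and 42 of 304 (13.8%). A few pairs already used the upstream acceptor for most reads in WT, as in SERBP1, an RNA-binding protein, at 52.6% and 66.2%, and JKAMP, a membrane protein of JNK signalling, at 68.6% and 79.9%. The rises thus span pairs with a rare and pairs with a dominant upstream acceptor in WT.

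**Figure D1:**
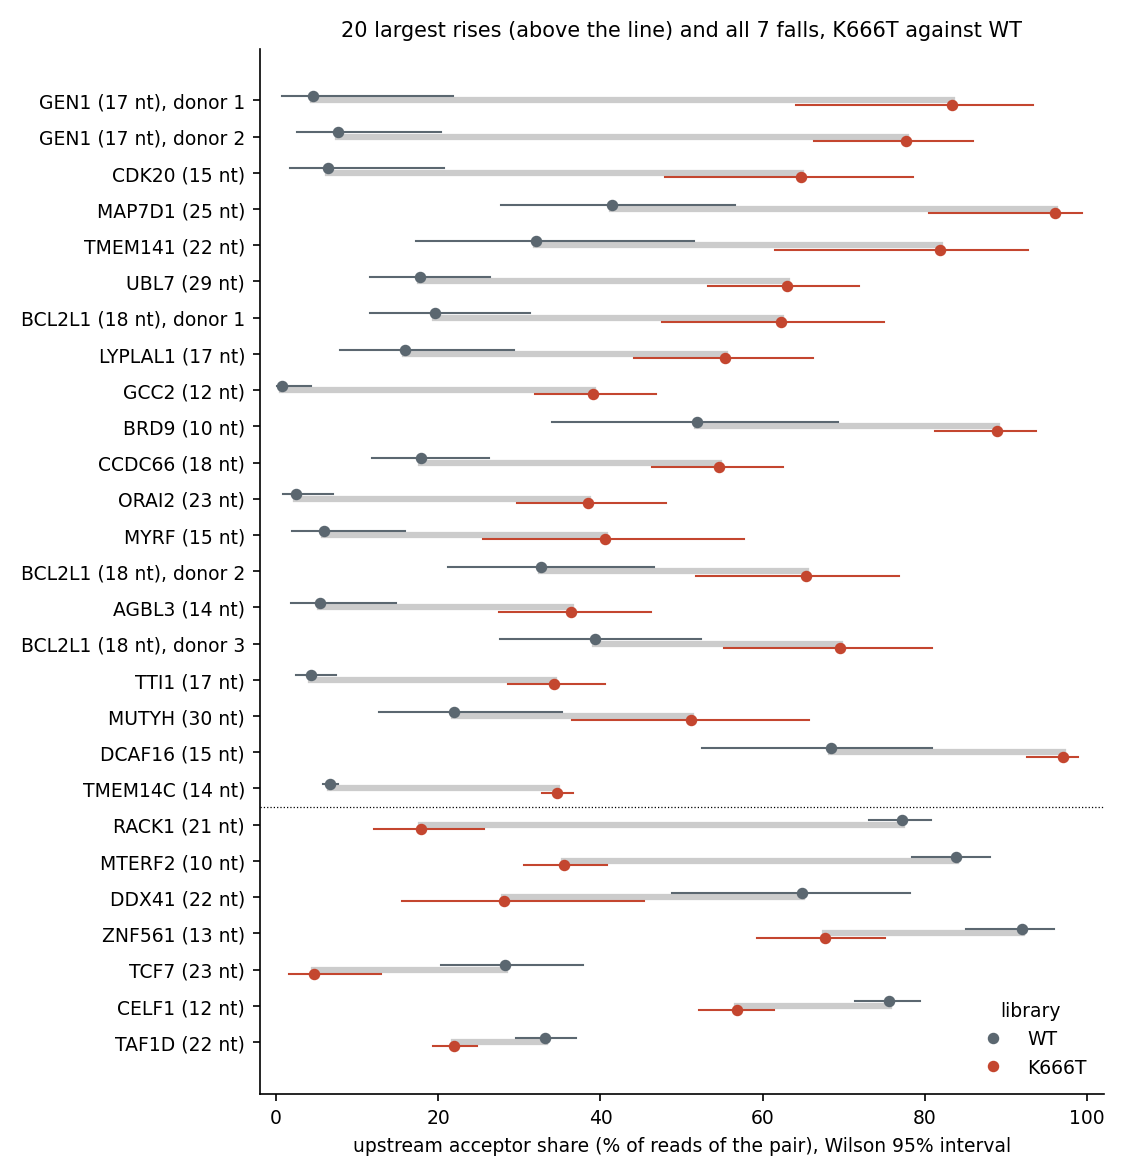
Upstream acceptor share in percent of the pair's reads (x axis) for the 20 largest rises and all 7 falls, 1 row for each pair with its gene and the distance between both acceptors. Points are the WT and K666T libraries, thin lines are Wilson 95% intervals and grey bars join both values; the K666T point lies to the right of WT for every row above the dotted line and to the left for every row below it.

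The 7 falls, in which the downstream acceptor gained share, were led by RACK1, a scaffold of the small ribosomal subunit, at 364 of 472 reads (77.1%) in WT and 22 of 123 (17.9%) in K666T. Of its junction reads 76.3% mapped to several places, and the difference was 1.83 points in the other direction when those reads were added. MTERF2, a mitochondrial transcription factor, fell from 186 of 222 reads (83.8%, 78.4 to 88.05) to 117 of 329 (35.6%, 30.6 to 40.9). CELF1, an RNA-binding regulator of splicing, fell from 338 of 447 (75.6%) to 251 of 442 (56.8%), and ZNF561, a zinc finger gene, from 92.0% of 100 reads to 67.7% of 130. DDX41, a helicase gene mutated in myeloid disease, fell from 24 of 37 reads (64.9%, 48.8 to 78.2) to 9 of 32 (28.1%, 15.6 to 45.4), with an adjusted p of 0.04. TCF7, a transcription factor of WNT signalling, fell from 28 of 99 (28.3%) to 3 of 64 (4.69%), and TAF1D, of the RNA polymerase I factor SL1, from 210 of 633 (33.2%) to 200 of 912 (21.9%). With multi-mapped reads added, DDX41 (-10.56 points) and TAF1D (-7.93) were no longer called. All of these upstream acceptors but that of RACK1 are annotated.

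Nearest to the 10-point limit on the inside were DZIP3 with a difference of 10.01 points, MAPK8IP2 with 10.2 and HLTF with 10.2. On the outside were UBXN2A with 9.93, CHURC1-FNTB with 9.61 and RABGAP1 with 9.59 points, all with an adjusted p under 0.05.

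Of 35 genes in which acceptor changes are known from SF3B1-mutant cells, 30 had 49 pairs in the set. The share rose at 19 of these pairs, in 17 genes, and fell at 2, in MTERF2 and ZNF561, beside 2.23% risen and 0.188% fallen over the whole set. The list was drawn up with earlier results of these libraries known, and it is not independent evidence. Its remaining pairs made no call. SLC3A2, the heavy chain of amino acid transporters, had 6 of 2134 reads (0.28%) in WT and 167 of 2271 (7.35%) in K666T, with an adjusted p of 4.35e-39 but a difference under 10 points. The GAS8 pair at chromosome 16 position 90097583 stood at 57.7% of 26 reads and 77.6% of 67, with an adjusted p of 0.452, and in PPOX, the penultimate enzyme of heme synthesis, 4 of 88 and 3 of 60 reads lay upstream.

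The rises lay at short distances. Their median distance between acceptors was 15 nt, against 20 nt in the set and 21 nt for the falls. Of 79 risen site pairs 56 (70.9%) were 12 to 18 nt apart, against 35.7% of the set. By class, 12 of 234 site pairs 10 to 12 nt apart rose (5.13%, 2.96 to 8.75), 29 of 449 at 13 to 15 nt (6.46%, 4.53 to 9.12) and 20 of 711 at 16 to 18 nt (2.81%, 1.83 to 4.3). From 19 nt on the share was 1.16% or less in every class, as in 8 of 689 at 19 to 21 nt and 2 of 477 at 25 to 27 nt. The upstream acceptor was unannotated at 44 risen site pairs (55.7%) and at 65.0% of the set. Of the risen site pairs 61 (77.2%) opened an exon whose first base lies in coding sequence, against 85.6% of the set. Of these, 29 (47.5%) had a distance that is a multiple of 3, against 45.0% in the set. The share of frame-keeping distances among rises was thus close to that of the set.

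**Figure D2:**
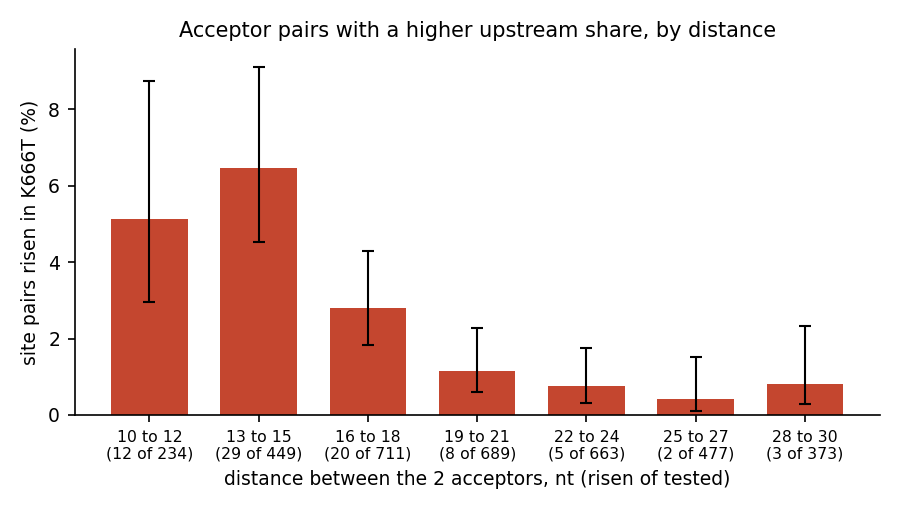
Percentage of acceptor site pairs of the main set whose upstream share rose in K666T (y axis), by the distance between both acceptors in nt (x axis, with risen and tested site pairs in brackets). Error lines are Wilson 95% intervals; the bars for 10 to 12 and 13 to 15 nt stand at 5.13 and 6.46%, and every bar from 19 nt on is at 1.16% or lower.

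Gene levels of the host genes were set beside the frame. In 31 genes with a coding rise at a distance that is not a multiple of 3, the median log2 ratio of K666T to WT was -0.12, and 21 genes (67.7%) were lower in K666T. In 29 genes with a frame-keeping rise the median was 0.0, and 14 (48.3%) were lower. In the genes of the whole set 49.5% (1369 genes, not a multiple of 3) and 49.3% (1154 genes, multiple of 3) were lower, both with a median of 0.0. Among the frame-shifting hosts DPH5 had 5718 reads in WT and 3704 in K666T (log2 -0.55), TPP2, a large peptidase, 5493 and 3746 (log2 -0.48), and PPP2R5A, a regulatory subunit of PP2A, 4868 and 3514 (log2 -0.40). A low host was also seen with a frame-keeping distance, as in CCDC74B at 1015 and 648 reads (log2 -0.57). These ratios have no test, and no gene of the group was 2-fold apart.

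At 45 further pairs that rose and 17 that fell, an acceptor was unread on one side and the downstream one is annotated. They belong to the 128 rises (0.907%) and 24 falls (0.17%) among 14107 pairs with an annotated downstream acceptor. Over all 22896 pairs tested, both acceptors were read in both libraries at 114 of 319 rises and 28 of 216 falls. The remaining rises and falls had an unread acceptor and were closer in number. The upstream acceptor had no read in WT at 42 of the 45 rises. In NCAPG, a condensin subunit, it had 0 of 456 reads in WT and 63 of 455 in K666T (13.85%), with 24 of 408 in R625H and 38 of 435 in K700E. CC2D1A, an endosomal and signalling protein, had 0 of 239 and 32 of 270 (11.85%), SYVN1, the ubiquitin ligase HRD1 of the endoplasmic reticulum, 0 of 253 and 28 of 239 (11.7%), CDK8, a kinase of the Mediator complex, 0 of 215 and 24 of 218 (11.01%), and FIG4, a phosphoinositide phosphatase, 0 of 171 and 24 of 127 (18.9%). Of the 42 sites, 25 were read in both other mutant libraries, 5 in 1 and 12 in neither. The 12 read only in K666T include CDK4 (0 of 214 in WT, 78 of 251 in K666T, 0 of 163 in R625H and 0 of 146 in K700E) and LARP1, an RNA-binding protein of mTOR signalling (0 of 77, 44 of 110, 0 of 67 and 0 of 62). At others of the 12 the pair had few reads in the other mutant libraries. PCNA had 0 reads in R625H and 20 in K700E, and CCAR2 had 6 and 14. The share of multi-mapped reads at these pairs was 11.9% in CDK4 and 0.532% in LARP1, and it reached 66% at 1 of the SNRNP200 pairs. Whether the sites seen in K666T alone are sites of these genes or of similar sequence elsewhere was not tested.

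K666T was then set directly against the other mutant libraries, reads against reads. Over all pairs tested against R625H (23372), the upstream share was higher in K666T at 225 (0.963%) and lower at 271 (1.16%), and over those tested against K700E (23495) it was higher at 261 (1.11%) and lower at 238 (1.01%). At the 83 pairs that rose against WT, K666T was higher than R625H at 1 and lower at 2, and it was higher than K700E at 9 and lower at 0. None of the 83 differed from both. The median difference was -1.08 points against R625H, with K666T above in 38 of 83, and 4.93 points against K700E, with K666T above in 65. The 83 pairs were chosen for a high K666T share against WT, so the choice itself favours K666T in these counts. They are therefore no independent comparison of the mutants. The plasmid amount was 1000 ng for K666T and for R625H but 2000 ng for K700E, so mutation and amount cannot be told apart in the second comparison.

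The pair above R625H was in WDR90, a centriolar protein, with 4.42% in WT, 25.2% in K666T and 7.59% in R625H (adjusted p 0.0249 for K666T against R625H). The pairs below R625H were in TOR1AIP2, a nuclear envelope partner of torsins, with 13.8% in K666T and 25% in R625H (adjusted p 0.0115), and in HELLS, with 13.9% and 24.4% (adjusted p 0.0439). Above K700E were TMEM14C (34.7% in K666T, 23.4% in K700E, adjusted p 2.25e-19), UBL7 (63.0 and 35.9%, adjusted p 0.00271), LYPLAL1 (55.4 and 30.7%, adjusted p 0.0392), UXS1 (50.5 and 35.96%, adjusted p 0.0353) and VEZT, an adherens junction protein (69.6 and 57.3%, adjusted p 0.0199). In the others the share in K700E was near that of WT: ZNF76, a zinc finger factor, stood at 3.47% in WT, 19.3% in K666T and 4.33% in K700E (adjusted p 8.16e-07 for K666T against K700E). TCEA2, an elongation factor of RNA polymerase II, stood at 2.87, 24.4 and 7.96% in the same order, CCDC74A at 2.63, 20 and 2.94%, with 21.5% of its junction reads mapping to several places, and the zinc finger gene ZNF771 at 15.5, 32.5 and 18.7%. Among the 7 falls, RACK1, with its many multi-mapped reads, was higher in K666T (17.9%) than in R625H (0 of 103 reads, adjusted p 2.34e-05) and lower than in K700E (73.8%, adjusted p 1.11e-27). DDX41 was lower in K666T (28.1%) than in R625H (64.4%, adjusted p 0.0333), and stood at 64.1% in K700E without a call (adjusted p 0.0514).

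**Figure D3:**
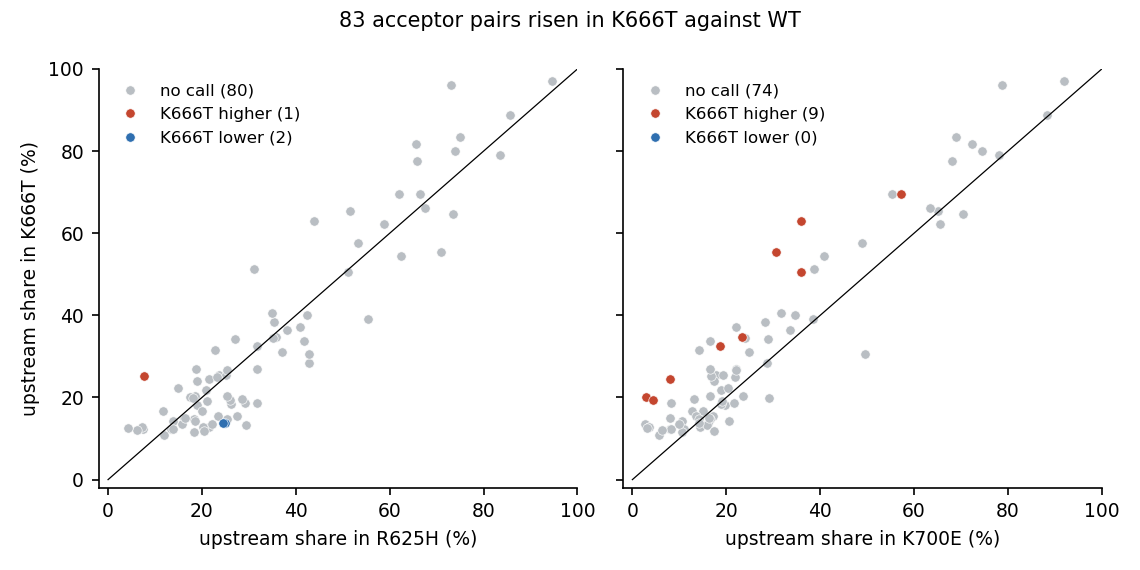
Upstream share in K666T (y axis, percent) against that in R625H (left panel) and K700E (right panel) for the 83 acceptor pairs that rose against WT; each point is 1 pair and the line marks equal shares. Coloured points passed the direct test: 1 pair was higher and 2 were lower in K666T than in R625H, and 9 were higher than in K700E.

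Pairs of donors 10 to 30 nt apart, a class of the same geometry at the other end of the intron, were measured in the same way. With both donors read in both libraries and at least 1 of them annotated, the share of the upstream donor rose at 7 of 2794 pairs (0.251%) and fell at 9 (0.322%), and over all 7160 donor pairs 28 rose (0.391%) and 46 fell (0.642%). Rises at donors were thus no more frequent than falls in either set. TRMT1, a tRNA methyltransferase, rose from 2 of 30 reads (6.67%) to 16 of 34 (47.1%, adjusted p 0.0203), ZNF341 from 13 of 37 (35.1%) to 24 of 32 (75.0%), and SCAPER, a protein tied to the cell cycle and cilia, from 30 of 63 (47.6%) to 62 of 73 (84.9%, adjusted p 0.000215). The largest falls were in HNRNPA2B1, an RNA-binding protein (30.4% to 3.78%), and ADH5, a formaldehyde-detoxifying enzyme (38.4% to 12.5%), where most junction reads mapped to several places, and in ADGRB1, an adhesion receptor (96.2% to 77.6%). With multi-mapped reads added, the ADH5 difference was 2.09 points in the other direction.

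Whole exons were compared through inclusion, the mean of reads on both flanking junctions as a percentage of that mean plus the reads that skip the exon. Many of the largest differences rested on an unread junction: of the 12 largest rises and 12 largest falls with annotated exon ends, 11 and 12 did. The exons described are therefore those with 4 annotated sites and 3 junctions read in both libraries, a set chosen after the data were seen, and the exons named beyond the 12 largest each way were chosen after their values were seen. In it, inclusion rose at 27 of 37777 exons (0.0715%) and fell at 74 (0.196%), in 25 and 65 genes. Without those demands, 112 of 152777 events with both exon ends annotated rose (0.0733%) and 202 fell (0.132%). Some exons of the set overlap and share their skipping reads, and are not separate observations. Among the rises these include EIF4A2 (111 and 107 nt) and TMEM214 (78 and 103 nt), and among the falls COASY (65 and 339 nt). The median inclusion of the 27 exons was 21.95% in WT and 42.4% in K666T, while that of the 74 was 90.8% and 77.8%. Over all exons of the set the median inclusion in WT was 97.44%.

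Sequences of short exons that changed, from GENCODE 29 transcripts, run 5′ to 3′ and are shown because their length sets how much of the transcript is gained or lost. The first 4 rose and the last fell.
PTPRS exon of 12 nt: caaacccgacag
GAS8 exon of 14 nt: ctgtttatttttag
FIP1L1 exon of 27 nt: gtattccaataactgtaccacctccag
ABCC5 exon of 75 nt: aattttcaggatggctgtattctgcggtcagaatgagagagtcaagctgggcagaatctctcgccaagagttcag
DIAPH2 exon of 33 nt: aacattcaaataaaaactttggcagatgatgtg

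The largest rise in inclusion was that of the ABCC5 exon (chromosome 3, 183703092 to 183703166), in a gene for a transporter of organic anions and cyclic nucleotides. It was included in 9 of 100 reads in WT (9.0%, 4.81 to 16.2) and in 52 of 92 in K666T (56.5%, 46.3 to 66.2), with an adjusted p of 2.3e-10. In R625H it stood at 38.2% without a call, and in K700E at 15.96%, below K666T (adjusted p 2.76e-06). An exon of COASY, the enzyme of the last steps of coenzyme A synthesis, rose from 19.01% to 62.5%, while a coding exon of 65 nt in the same gene fell from 87.4% to 73.5%. The 12-nt exon of PTPRS, a receptor tyrosine phosphatase (chromosome 19, 5218798 to 5218809), rose from 82 of 206 reads (39.8%) to 117 of 183 (63.9%, adjusted p 0.000455), and the 14-nt exon of GAS8, of the axonemal dynein regulator (chromosome 16, 90097584 to 90097597), from 7.41% of 108 reads to 29.6% of 98. Both this exon and one of BRD9, which rose from 3.05% to 16.5%, open at the upstream site of an acceptor pair given above, so exon and pair are not separate observations.

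Other rises were read in TMEM214, an endoplasmic reticulum protein of cell death signalling (4.01% to 26.6%), FIP1L1, of the polyadenylation machinery (29.9% to 44.3%), MFF, the receptor for mitochondrial fission (32.6% to 44.6%), BCOR, a transcriptional corepressor (58.8% to 70.1%), and RSRC2 (15.6% to 30.8%). In 2 genes inclusion in K666T was also above K700E: KTN1, a kinesin receptor (38.75% in WT, 49.97% in K666T and 39.6% in K700E), and HNRNPA2B1 (51.6, 66.9 and 43.0%). MAGEA2B rose from 50% to 88.0%, with 82.1% of its junction reads mapping to several places, and the difference was -0.66 points when those were added. Among the risen exons that open in coding sequence, 11 of 22 (50%) had a length that is a multiple of 3, against 40.9% of all such exons tested.

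Among exons that fell, 119 nt of DCAF16 went from 212 of 238 reads (89.1%, 84.5 to 92.4) to 162 of 291 (55.7%, 49.9 to 61.3), with an adjusted p of 3.4e-15. The reads that skip this exon, 26 in WT and 129 in K666T, are the upstream reads of the first DCAF16 acceptor pair above, so exon and pair are not separate observations. THRB, the thyroid hormone receptor β, fell from 21 of 28 reads (75.0%) to 11 of 37 (29.7%, adjusted p 0.0335), and FNIP1, the folliculin partner in nutrient sensing, from 81.0% to 50.5%. U2AF1L4, a relative of the acceptor-binding U2AF1, fell from 56 of 67 (83.6%) to 42 of 75 (56.0%), and HROB, a factor of homologous recombination, from 86.05% to 61.65%. AFTPH, of clathrin traffic, fell from 93.4% to 72.2%, SEC16A, which marks exit sites of the endoplasmic reticulum, from 81.05% to 62.4%, DDB2, of ultraviolet damage recognition, from 80.15% to 62.0%, and the 33-nt exon of DIAPH2, a formin, from 94.4% to 77.9%. In EIF4A2, a helicase of translation initiation, a 140-nt exon fell from 988 of 1207 reads (81.9%) to 800 of 1220 (65.6%), while a 111-nt exon rose from 34.8% to 51.9%. Of the 61 fallen exons that open in coding sequence, 21 (34.4%) had a length that is a multiple of 3. Against the other mutants, none of the 74 differed from K700E, and 1 was lower than in R625H, in the transcription factor gene USF2 (39.1% against 52.0%, adjusted p 0.0138).

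**Figure D4:**
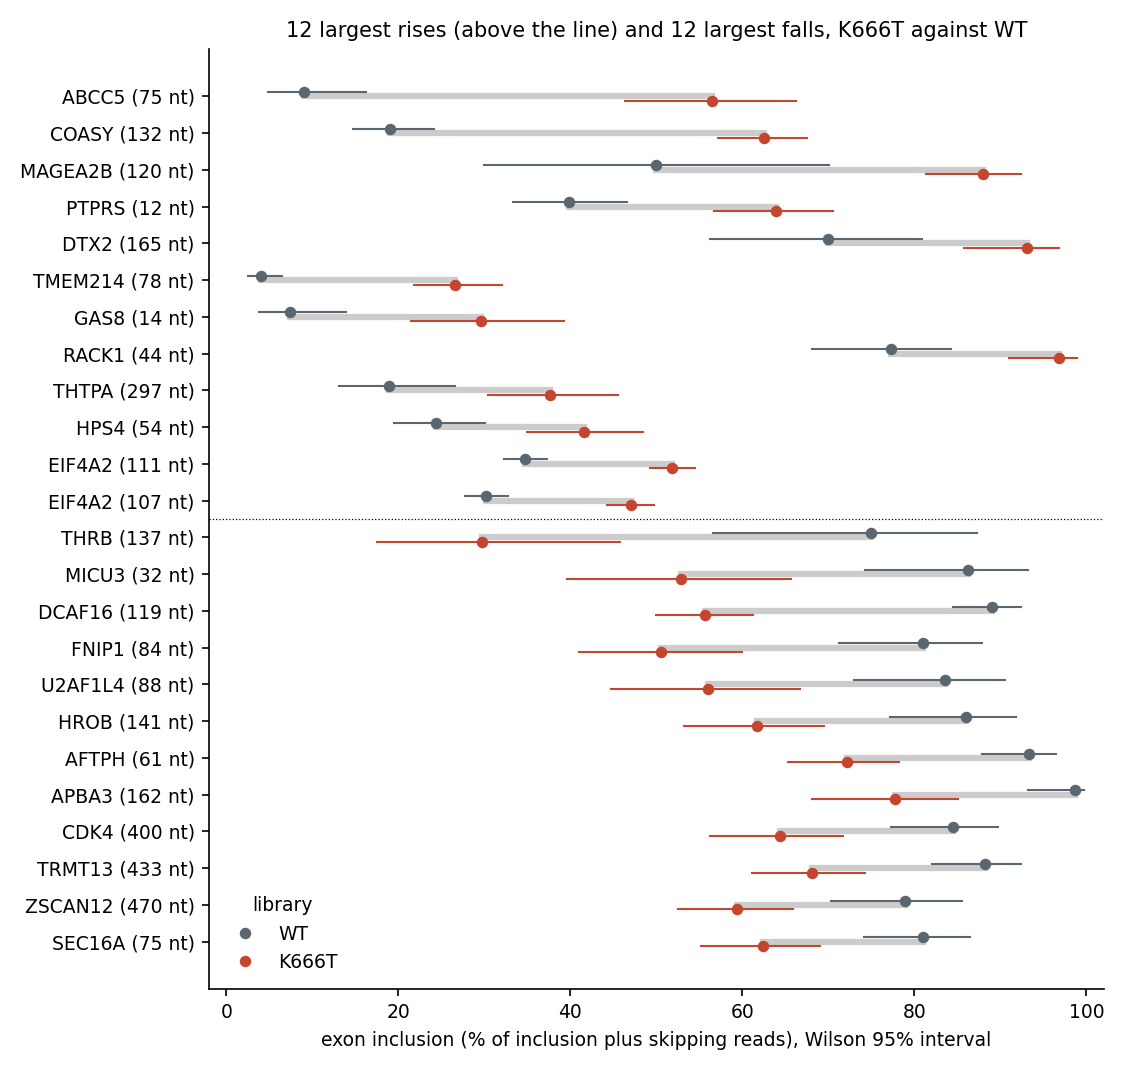
Exon inclusion in percent of inclusion plus skipping reads (x axis) for the 12 largest rises and 12 largest falls among exons with every junction read in both libraries, 1 row for each exon with its gene and length. The EIF4A2 exons of 111 and 107 nt share their skipping reads. Points are the WT and K666T libraries and thin lines Wilson 95% intervals; rises start from WT values between 4.01 and 77.2%, and falls from 75.0% or more.

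Gene levels were compared as the log2 ratio of CPM, K666T over WT, with a prior count of 10 and without a test. In these bulk RNA samples fewer cells of a type and less RNA per cell cannot be told apart. Of 14847 genes measured, 104 were at least 2-fold higher in K666T (0.7%) and 1 was at least 2-fold lower (0.00674%), and 56.7% lay within 10% of WT. The median ratio was -0.0009. Of the 104 genes, 24 were in a list of 42 interferon response symbols, of which 40 were matched to a gene here. Of the 104, 73 code for protein and 59 were under 1 CPM in WT. A gene counted as measured with at least 1 CPM in any of the 4 libraries, so some of the 104 were under 1 CPM in both WT and K666T. The gene below was NPM1P6, a pseudogene of nucleophosmin whose reads can be shared with its parent gene, at 1210 reads in WT and 119 in K666T (log2 -3.17).

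Interferon response genes stood highest. These genes are switched on by type I interferon through STAT and IRF factors and include sensors of foreign RNA and effectors that block viral growth. All 37 measured members were above WT, from 0.04 to 3.11 on the log2 scale, with a median of 1.52, and 24 were at least 2-fold higher. Of the effectors, RSAD2 (viperin) had 108 reads in WT and 913 in K666T, or 1.19 and 10.6 CPM (log2 3.04, 95% counting interval 2.86 to 3.45). Counting intervals of gene ratios are taken from the counts without the prior count, so they need not centre on the printed ratio. IFIT3, a partner of IFIT1 in the IFIT complex, had 390 and 2869 reads (log2 2.92), IFIT2 483 and 3005 (log2 2.69), and IFIT1, which binds RNA without a methylated cap, 2703 and 12230 (log2 2.25). The ubiquitin-like modifier ISG15 had 790 and 3345 reads (log2 2.14). Of the synthetases that make 2-5A, OAS1 had 28 and 301 (log2 3.11) and OAS3 438 and 1790 (log2 2.08).

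Sensors and signalling members were also above WT. RIGI, a sensor of RNA ends, had 891 and 3055 reads (log2 1.84), IFIH1 (MDA5) 96 and 225 (log2 1.22), and the signal transducer STAT2 3730 and 4003 (log2 0.18). IRF1 was at 0.04. Interferon β itself, IFNB1, had 8 and 57 reads (log2 1.97), and the chemokine CXCL10 30 and 180 (log2 2.32). In K666T, IFNB1 (0.66 CPM), XAF1 (0.405) and CXCL11 (0.579) were under 1 CPM, as in WT, and counted as measured only through K700E. MX2 (0.602 CPM in K666T) did so only through R625H and K700E. All of these were counted among the members at least 2-fold higher. Set beside the other vectors, which share the WT library as control, IFIT1 stood at log2 2.78 in R625H and 5.32 in K700E, RSAD2 at 3.68 and 7.15, and ISG15 at 2.54 and 4.40. The list median was 1.52 in K666T, 1.71 in R625H and 3.69 in K700E. The plasmid amount differed between the vectors as given above, and its part in these levels was not tested.

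The 250 bases before each gene start in RefSeq (GRCh38.p14) were read for GAAANNGAAA, the core of the interferon-stimulated response element, on both strands. It occurred in 16 of 30 measured list members with a window (53.3%) and in 11 of 19 that were at least 2-fold higher (57.9%), against 839 of 27305 promoters in all (3.07%) and 238 of 11018 of measured genes (2.16%). A match is a description of letters, not a site. The windows of 5 members with a match and a high ratio are shown with the motif in capitals. No match was recorded for OAS1 (log2 3.11) and RSAD2 (log2 3.04), the highest members, or for OAS2 and IFIT2. Windows were read for 30 of the 37 measured members and for 19 of the 24 at least 2-fold higher. Which members had no window was not recorded, so these genes cannot be said to lack the motif.
ISG15, chr1:1013376-1013401, gene strand (+): tgcctcggGAAAGGGAAAccgaaact
IFIT1, chr10:89392499-89392524, opposite strand (gene on +): cgaaagggGAAAGTGAAActaaagct
IFIT3, chr10:89327833-89327858, opposite strand (gene on +): gggaggagGAAAATGAAAcctaacgg
OAS3, chr12:112938323-112938348, gene strand (+): aaagaaacGAAACTGAAAgcagggaa
IFI44, chr1:78649763-78649788, opposite strand (gene on +): agagaaagGAAACTGAAActcagtgt

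Stress and early response genes were mostly above WT. Of 20 integrated stress response genes 17 were above WT, with a median of 0.21 and 2 at least 2-fold higher. The hormone gene FGF21 had 52 and 297 reads (log2 2.38), and PPP1R15A (GADD34), which directs the phosphatase of eIF2α, 7043 and 15209 (log2 1.18). DDIT3 (CHOP) had 2549 and 4222 reads (log2 0.80), CTH, of cysteine synthesis, 3050 and 5171 (log2 0.83), and NUPR1 715 and 1215 (log2 0.83), under 2-fold. Of 23 immediate early genes 21 were above WT, with a median of 0.44: EGR1 had 1382 and 3921 reads (log2 1.57), FOS 1059 and 2376 (log2 1.23) and ATF3 11248 and 20573 (log2 0.94). The motif TGATGNAA, a core of elements bound by CHOP and ATF4, was in 3 of 18 windows of the stress list (16.7%) and in 870 of all 27305 (3.19%), among them FGF21, shown as the gene of that list with the highest ratio.
FGF21, chr19:48755462-48755485, opposite strand (gene on +): ctcctcccTGATGCAAtcctggtg

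Replication-dependent histone genes, whose mRNAs mostly lack a poly(A) tail, were low, and all 9 measured were above WT with a median of 0.51. H1-4 had 62 and 137 reads (log2 1.1), H2BC5 922 and 1456 (log2 0.73) and H1-2 2830 and 3816 (log2 0.50). Heat shock genes had a median of 0.07, and 1 of 15, HSPA6, was at least 2-fold higher (144 and 304 reads, log2 1.1). In the unfolded protein response list (median 0.10) XBP1 stood at 0.51 and HSPA5 at 0.32, p53 targets had a median of 0.15 with AEN at 0.39, and NF-kB targets a median of 0.14 with CXCL2 at 0.86 and RELB at 0.70. None of the members of these last 3 lists was 2-fold apart.

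Genes of the splicing machinery were near WT. The U2 snRNP and branch point list had a median of 0.11 over 26 genes, and its highest member was SUGP1, a partner of SF3B1 in branch point choice, with 3537 reads in WT and 5741 in K666T (log2 0.77, 0.71 to 0.83), followed by ZRSR2, of acceptor recognition, at 0.33. SR and hnRNP proteins had a median of 0.11, with the SR protein kinases CLK1 at 0.63 (5421 and 7996 reads) and CLK4 at 0.46, and nonsense-mediated decay factors a median of 0.08, with the kinase complex subunit SMG8 at 0.22. Nucleolar ribosome biogenesis genes had a median of 0.11 and cell cycle genes of 0.02.

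On the lower side, 22 of 23 cholesterol synthesis genes were below WT, with a median of -0.14. INSIG1, which retains the sterol sensor in the endoplasmic reticulum, had 24116 and 16116 reads (log2 -0.51), SQLE, squalene epoxidase, 14758 and 11253 (log2 -0.32), and LSS, lanosterol synthase, 10113 and 7880 (log2 -0.29). In the heme and iron list (median -0.10) the heme oxygenase HMOX1 stood at 0.72, with 16269 and 25408 reads, and PPOX at -0.43. PHGDH, the first enzyme of serine synthesis, had 30635 and 19492 reads (log2 -0.58), while the median of its list was -0.08. Hypoxia and glycolysis genes had a median of -0.10 with ADM at 0.86, nuclear respiratory chain subunits -0.08, mitochondrially encoded genes -0.09, cytosolic ribosomal proteins -0.06, and the genes known for altered acceptors -0.04. MHC class I genes had a median of 0.05, with NLRC5, their transactivator, at 0.16 and TAP1 at 0.13.

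Outside the lists, the highest ratios among named genes with a mean of at least 5 CPM included INHBE, an activin subunit (541 and 1889 reads, log2 1.86), DNAH17, an axonemal dynein (651 and 1867, log2 1.58), ANKRD1, a target of YAP (1271 and 3227, log2 1.41), and DHRS2, a reductase (833 and 2097, log2 1.40). The lowest after NPM1P6 were TMEM160 and C4orf48, both at -0.82, with 769 and 409 reads and 737 and 391 reads, NME3, a nucleoside diphosphate kinase (4489 and 2586, log2 -0.72), and CCDC85B (2377 and 1377, log2 -0.71). None of these 4 reached a 2-fold difference.

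**Figure D5:**
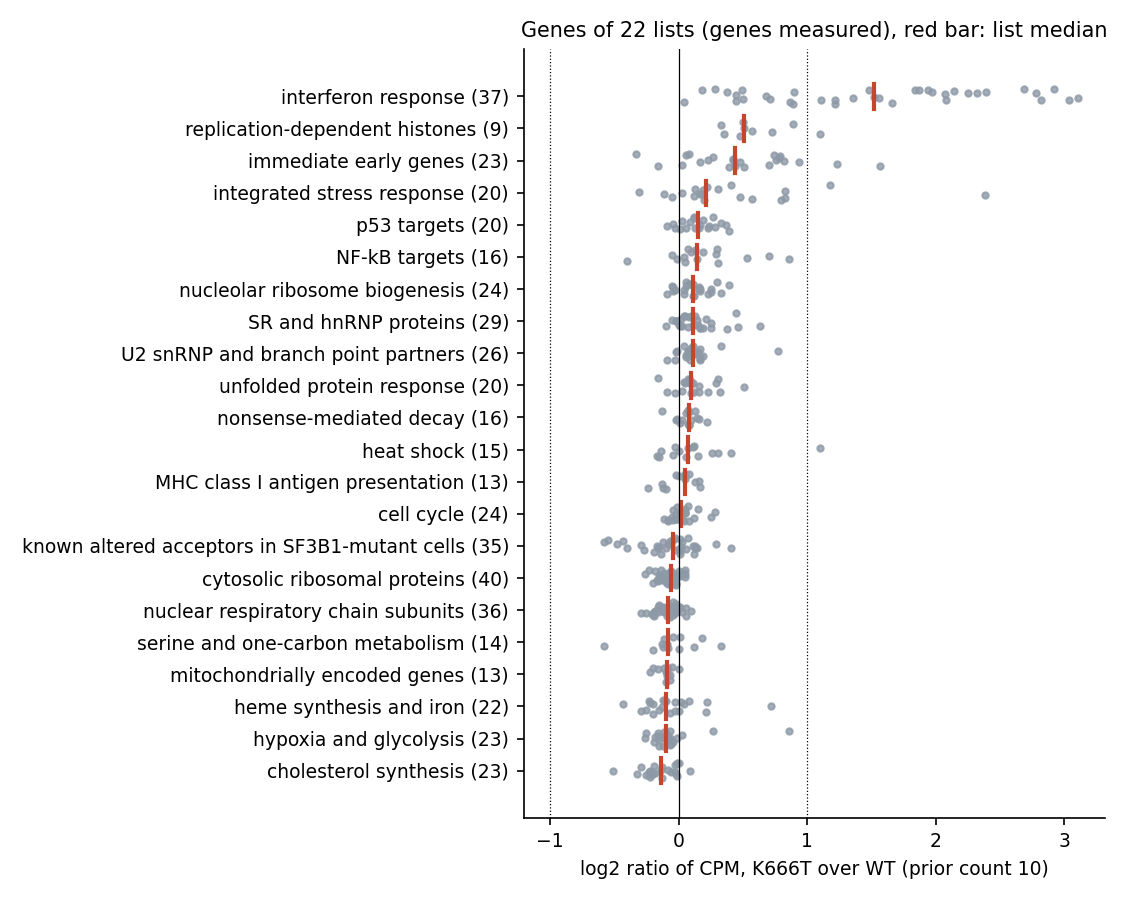
Log2 ratio of CPM, K666T over WT with a prior count of 10 (x axis), for the measured genes of 22 lists; each point is 1 gene, red bars are list medians and dotted lines mark 2-fold either way. Interferon response genes lie highest with a median of 1.52 and none below 0, and most points of the other lists lie between the dotted lines.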

How the data were processed

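For each library the authors deposited unnormalised counts of reads by gene and by splice junction, aligned to hg19 (GRCh37) with STAR 2.5.3a per the submitters' processing notes, which also name HTSeq without a role. No source names the annotation release. Longest overhangs in nt, as the authors deposited them, were used only as a filter.

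From these files, gene values are the counts of the reverse-strand column, and splicing values the uniquely mapped junction reads. Rows that name no gene were left out, and in WT and K666T they were unmapped (8.84 and 17.31%), multi-mapping (4.4 and 4.01%), without a feature (5.23 and 5.19%) and ambiguous (3.43 and 3.04%). Junctions were tied to GENCODE 29 genes by the lengths of at least 2 introns falling together. This placed 16127 of the 18243 coding genes that have 2 or more introns. Each gene was sought on its own chromosome, where 19353 genes of any type matched. In a separate check that sought each gene on a wrong chromosome on purpose, 79 genes matched. Positions are those of hg19: the last intron base for acceptors, the first and last base for exons. Of 57820 gene IDs, 39538 had a symbol.

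Acceptor pairs, donor pairs and exons of up to 500 nt were compared with two-sided Fisher's exact tests (numpy 2.4.6, pandas 2.3.3, scipy 1.17.1 on Python 3.11.15), adjusted by Benjamini-Hochberg over all features with at least 20 reads in both libraries. Gene ratios used CPM with a prior count of 10, for genes of at least 1 CPM in at least 1 of 4 libraries, with TMM (edgeR 4.0.16) and size factors (DESeq2 1.42.0, R 4.3.3) as alternative scalings. The comparison of reads between 2 libraries and the log2 ratio were tested on simulated data, for exons with 1 flanking junction and not the mean of both. The rule named the 20 largest acceptor rises, all falls and pairs of the known list, the 12 largest exon changes each way, the 3 largest donor changes each way, the 15 highest and lowest genes with a mean of at least 5 CPM, and in each gene list the 4 largest ratios and all members 2-fold apart. The text gives a selection of these. The members and lists were chosen with earlier results of these data known.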

Additional observations from a re-analysis of the deposited data

How the results depend on the processing

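No paired analysis was possible because each group has 1 library. The main acceptor set gave 33 rises at 20 points. Of its 83 rises, 77 were called with multi-mapped reads added, 78 of 79 tested with an overhang of at least 20 nt, 70 of 70 tested with 50 reads, and all 83 by Wilson intervals; of the 7 falls 4 were called with multi-mapped reads. Over all acceptor pairs, rises numbered 197 and falls 122 at 50 reads, 595 and 529 with multi-mapped reads, 118 and 34 by Wilson intervals, and 114 and 28 with both acceptors read; 211 rose by 20 points. Against R625H at 50 reads 113 were higher and 165 lower, and against K700E 150 and 139. Donor pairs gave 15 rises and 26 falls at 50 reads, and 246 and 195 with multi-mapped reads. Exons with annotated ends gave 2160 rises and 3627 falls with multi-mapped reads, 69 and 83 at 20 points, and 27 and 74 in the set described. That set gave 57 and 160 with multi-mapped reads and 7 and 10 at 20 points, and 45 rises by the flanking junction with fewer reads; of its 27 rises and 74 falls, 23 and 55 were called with multi-mapped reads. With those reads the difference changed sign in RACK1 (1.83 points), an uncalled SERBP1 pair at 67890670, not the risen one (0.23), AHCY (-1.98), ADH5 (2.09) and MAGEA2B (-0.66), and by the junction with fewer reads in the exons of CDK4 (1.08) and IDH3B (1.11). Genes at least 2-fold higher numbered 50 with a prior of 50 and 249 without a filter, and those 2-fold lower 2 with a prior of 1 and 10 without a filter. TMM moved the median ratio by -0.0253 and DESeq2 size factors by -0.0171. The cause of these differences was not tested beyond the reads or genes each setting adds or removes. With 1 library a side, depth limits counting error alone, and the spread between cultures is unknown.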
